A study of Drosophila melanogaster with 6 samples.

Results

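Of 12059 protein-coding genes of the fruit fly (Drosophila melanogaster) that could be counted, 65 (0.539%) held 8 or more m6A-CLIP peaks in each of 3 peak lists from fly heads. The genes were taken from the RefSeq annotation of Release 6, the dm6 genome, which has 13922 protein-coding genes, and a gene could be counted when some of its span lay in no other protein-coding span. Each peak was given to a gene if its midpoint fell inside that gene's span, introns included, and inside no other protein-coding span. The peak counts therefore chose the 65 genes and are given here as a description, with no test. The 3 lists come from 3 CLIP libraries, each with the input library whose labels name the same list. All 6 libraries are from heads of male and female w1118cs flies on the standard diet, kept at 25 °C in a light and dark cycle, with about 800 heads and 20 ug of poly(A) selected RNA per biological replicate. In the CLIP libraries, fragmented RNA was crosslinked by ultraviolet light to an antibody against m6A and recovered with it. The input libraries were not enriched, so the groups differ only in that step, and no genotype or treatment was compared.

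N6-methyladenosine (m6A) is a methyl mark on adenosines inside messenger RNA. In flies it is placed by a complex around Mettl3 and Mettl14 and read in nervous tissue by YTH domain proteins such as Ythdc1, and it is known there for effects on splicing, translation and behaviour. CLIP with an m6A antibody calls a peak where fragments are recovered by the antibody beyond what the input predicts.

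The lists held 14329, 7232 and 6645 peaks in lists 1, 2 and 3. Library totals are not given there, so the depth is unknown. The lowest signal of a peak was 7 CLIP reads per bin of 50 bp in list 1, 25 in list 2 and 7 in list 3, and the signal was not scaled to library size. Levels were therefore compared within a list. The labels name neurons as the cell type of these whole heads. Peaks in each list were found in 5 of 7 countable marker genes of neurons (nSyb, Syt1, brp, para and futsch), 5 of 5 of photoreceptor cells (ninaE, norpA, trp, chp and inaD) and 4 of 4 of glia (repo, Eaat1, Gs2 and nrv2). The same held for 5 of 6 of muscle (Mhc, bt, sls, up and wupA) and 4 of 6 of fat body (apolpp, Yp1, Yp2 and Yp3). Of all countable genes 13.5% had a peak in each list. The neuronal marker elav had none in any list, and neither did any of 4 germline markers (vas, bam, osk and aub). In RNA from whole heads, more cells of a type and more RNA per cell cannot be told apart.

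The 65 genes held 1200, 1025 and 920 peaks in lists 1, 2 and 3. That was 8.37% of list 1 (95% Wilson interval 7.93 to 8.84), 14.2% of list 2 (13.4 to 15) and 13.8% of list 3 (13.04 to 14.7), where the intervals cover counting error only. Among peaks in exactly 1 protein-coding gene, their share was 9.42%, 17.0% and 16.6%, a mean of 14.4% ± 4.3 (SD, n = 3). Over 215800, 145100 and 102550 bp, they took up 17.7%, 19.0% and 15.4% of the CLIP reads in such peaks. Of the CLIP reads in all peaks, they took up 8.11%, 0.944% and 0.590% in lists 1, 2 and 3. All peaks in exactly 1 protein-coding gene together held 45.7%, 4.98% and 3.84% of those reads, so the lists differed widely in where their reads lay. The genes lay on 2L (16 genes), 2R (7), 3L (13), 3R (20), 4 (1) and X (8).

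Phototransduction, the cascade that turns light into an electrical signal in the eye, had 8 members. norpA, the phospholipase C of the visual cascade, had 26, 29 and 34 peaks in lists 1, 2 and 3, which covered 15.3%, 11.6% and 5.84% of 42.783 kb. chp, the photoreceptor adhesion protein chaoptin, had 20, 21 and 22 peaks in a span of 6.551 kb, and its peaks covered 68.7%, 48.9% and 29.8% of that span. ninaC, a photoreceptor myosin with a kinase domain, had 18, 19 and 17 peaks, which covered 70.8%, 60.2% and 52.7% of its 6.643 kb. In chp and ninaC the lists stayed within 2 peaks of each other. Both light-gated cation channels were members, trpl with 15, 15 and 24 peaks and trp with 14, 17 and 19. Those of trpl covered 39.8%, 36.4% and 29.6% of its span. rdgA, the diacylglycerol kinase of photoreceptors, had 30, 17 and 12 peaks, most of them inside a non-coding gene described further on. Cam (calmodulin) had 18, 24 and 12 peaks, and Ggamma30A, the gamma subunit of the visual G protein, had 8, 19 and 18. List 1 was thus the low list for Ggamma30A and the high list for rdgA.

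Among the chosen genes, the muscle and cytoskeleton group held the gene with the most peaks in lists 1 and 2. Msp300, a giant spectrin repeat protein of the nesprin kind that links nuclei to the cytoskeleton, had 74, 69 and 38 peaks in 106.126 kb, and they covered 4.33%, 5.65% and 1.98% of the span. Mhc, the muscle myosin heavy chain, had 19, 29 and 35 peaks that covered 32.4%, 22.8% and 23.7% of 22.201 kb. ctp, a dynein light chain, had 15, 11 and 9. List 3 had the fewest peaks in Msp300 and the most in Mhc. The muscle marker bt, which was not chosen, had 91, 1 and 11 peaks, more than Msp300 in list 1 only.

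Ion transport was represented by 3 subunits of the sodium pump, a calcium pump and voltage-gated channels. Atpalpha, the alpha subunit of the sodium pump, had 23, 16 and 19 peaks, which covered 23.4%, 20.2% and 18.0% of its span. Its beta subunits nrv3 and nrv2 had 15, 19 and 18 peaks and 10, 11 and 11 peaks, and those of nrv3 covered 36.4%, 25.5% and 16.5% of its span. SERCA, the calcium pump of the endoplasmic reticulum, had 15, 14 and 10. The potassium channel gene Sh had 34, 22 and 8 peaks and the sodium channel gene para had 16, 14 and 8, so both channels reached the threshold exactly in list 3, while the pump subunits varied less between lists.

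Among synaptic genes, IA-2, a phosphatase-like protein of dense core vesicles, had 33, 34 and 26 peaks, and they covered 17.5%, 14.4% and 4.41% of 39.676 kb. Of its peaks, 20, 21 and 22 lay in the last 20% of the span. The release machinery was present with Syt1, the calcium sensor synaptotagmin (27, 21 and 8), with nSyb, neuronal synaptobrevin (10, 13 and 11), and with cpx, complexin (18, 13 and 11). Sap47, a synapse-associated protein, had 17, 17 and 11 peaks, and ATP8A, a phospholipid flippase, had 11, 12 and 11.

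RNA-binding proteins were the most numerous role, with 10 members, and each of the 10 had fewer peaks in list 3 than in list 1. ps (pasilla), a splicing regulator, had 42, 24 and 18 peaks, which covered 12.5%, 7.19% and 4.13% of the span, and 21, 14 and 8 of them were in its last 20%. Syp (syncrip) had 31, 15 and 9, shep had 24, 10 and 12, Rbp6, of the Musashi family, had 20, 11 and 8, and the KH domain protein mub had 20, 8 and 8. The hnRNP protein Hrb27C had 19, 13 and 9, the ELAV family member Rbp9 had 16, 13 and 10, and the splicing regulator Rbfox1 had 15, 14 and 8. Unr, a cold shock domain protein, had 12, 15 and 9 peaks, and Sf3b3, a splicing factor subunit, had 9, 8 and 8. All 3 transcription regulators also had fewer peaks in list 3 than in list 1: pros, a homeodomain factor, had 33, 17 and 11, bun, of the TSC22 family, had 27, 14 and 13, and the clock factor Pdp1 had 19, 8 and 13. Of the 1564 other genes with a peak in each list, 63.4% had fewer in list 3 than in list 1.

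The adhesion and guidance group joined short and very long spans. Fas1, a fasciclin, had 26, 24 and 19 peaks that covered 32.0%, 19.6% and 8.94% of 14.534 kb. Bsg (basigin) had 28, 13 and 10. The teneurin Ten-a and the semaphorin Sema1a stood close to the threshold with 8, 10 and 8 peaks and with 8, 8 and 9. In the signalling group, Lk6, a kinase of the initiation factor eIF4E, had 19, 20 and 24 peaks, covering 38.4%, 34.4% and 21.8% of 13.527 kb. CycG, a cyclin, had 17, 19 and 15, and dnc, the cAMP phosphodiesterase of memory mutants, had 21, 13 and 13. Sarm, an NAD-cleaving enzyme of axon degeneration, had 32, 9 and 11, the adaptor 14-3-3zeta had 8, 12 and 13, the G protein subunit Ggamma1 had 8, 12 and 9, and the chaperone Hsp83 had 9, 11 and 9.

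Metabolic members were mostly enzymes and carriers. apolpp, the precursor of the main lipoprotein of fly hemolymph, had 9, 23 and 49 peaks, the widest relative spread among the 65 genes. FASN1, fatty acid synthase, went the other way with 42, 29 and 12. Ogdh, mAcon1 and Gdh, all mitochondrial enzymes, had 25, 8 and 11, then 9, 15 and 14, then 8, 9 and 9 peaks. Sap-r, a saposin-related protein of lysosomes, had 11, 16 and 15, and UQCR-C1, a subunit of respiratory complex III, had 8, 8 and 10. Translation was represented by the elongation factors eEF1alpha2 (8, 9 and 10 peaks) and eEF1gamma (8, 8 and 10) and by the ribosomal proteins RpL3 (11, 10 and 9) and RpS5a (8, 10 and 10), all close to the threshold. The remaining genes, to which no role is given here, were aqz (13, 17 and 18), CG43897 (12, 13 and 13), CG6329 (12, 12 and 13), CG9297 (18, 11 and 17), CG32264 (15, 11 and 12), drn (18, 10 and 12) and Bacc (8, 9 and 8).

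**Figure D1:**
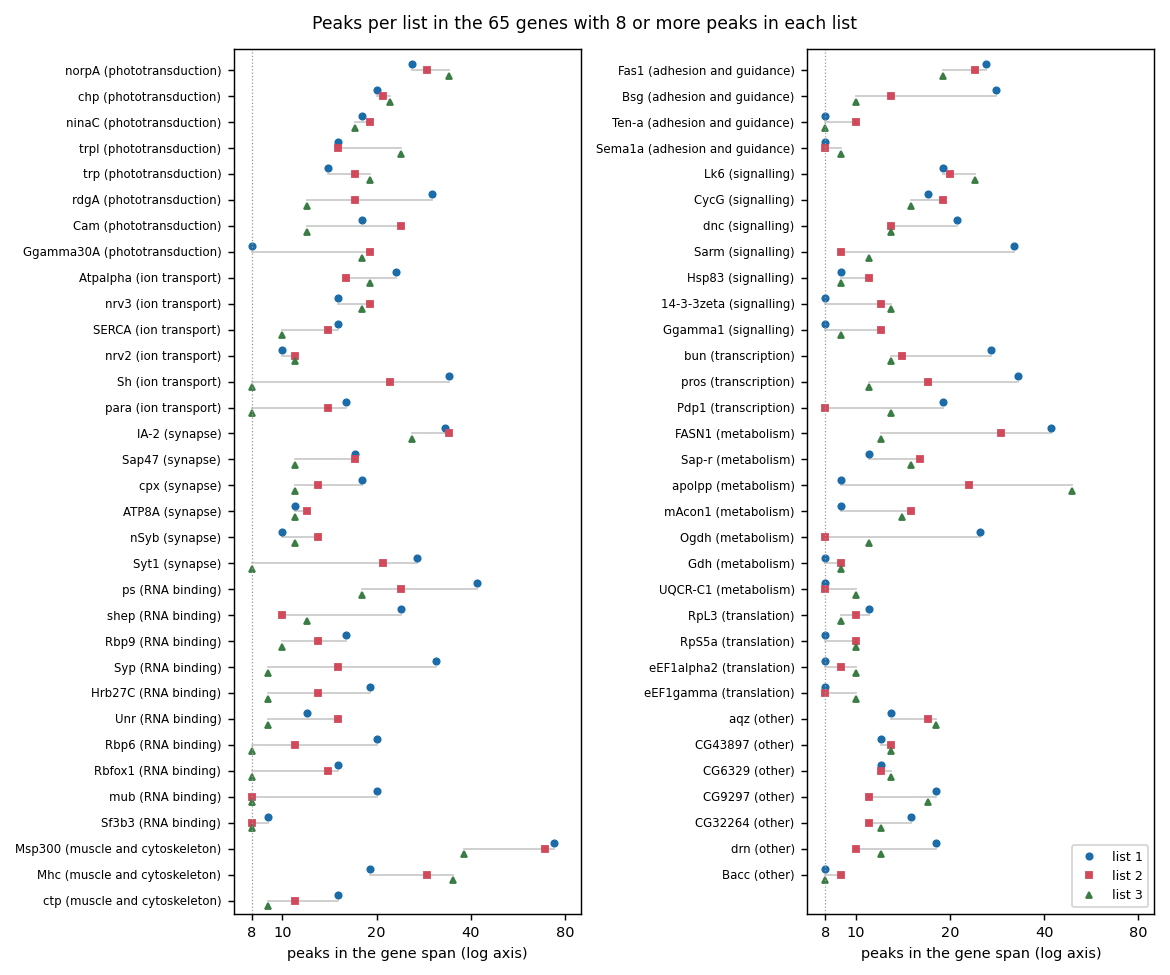
Peaks per list (log axis) in each of the 65 genes, 1 row per gene with its role, a circle for list 1, a square for list 2 and a triangle for list 3; the dotted line marks 8 peaks, the threshold. Msp300 has the most peaks in lists 1 and 2 (74 and 69, with 38 in list 3), apolpp has the most in list 3 (49, with 9 and 23 in the others), and many genes have a point on the dotted line.

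The threshold of 8 cut a continuous range. The lowest of the 3 counts was 8 in 20 of the 65 genes, 9 in 9 of them, 10 or more in 36 and 15 or more in 13. Just outside, 22 genes had a lowest count of 7. Among them, futsch, a microtubule-associated protein of neurons, had 19, 14 and 7 peaks, the visual G protein subunit gene Gbeta76C had 7, 7 and 7, and the troponin gene up had 8, 7 and 8. RNA-binding and nuclear genes just outside were bru3 (7, 8 and 10), msi (9, 8 and 7), Rm62 (16, 7 and 8), Eip93F (27, 15 and 7) and tai (8, 7 and 7). Genes of metabolism, transport and translation were Vha55 (13, 7 and 8), Ald1 (7, 11 and 7), Gpdh1 (11, 8 and 7), Tps1 (15, 12 and 7), Tsf1 (7, 10 and 8) and RpS16 (7, 7 and 8). The others were mtd (24, 10 and 7), kra (15, 7 and 8), CG7920 (7, 7 and 11), CG10077 (26, 18 and 7), CG13868 (14, 9 and 7), CG31705 (10, 14 and 7), CG17549 (7, 8 and 7) and CG5273 (7, 8 and 7). List 3 was at 7 in 14 of these 22 genes, list 2 in 8 and list 1 in 8.

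The count in a list that took no part in the choice was read by choosing genes on the other lists. Genes with 8 or more peaks in both lists 2 and 3 numbered 75, and 65 of them (86.7%) also had 8 or more in list 1, where 3.35% of all countable genes did. Their median in list 1 was 15 peaks and their lowest was 4. Chosen on lists 1 and 3, 65 of 81 genes (80.2%) had 8 or more peaks in list 2, against 1.01% of all genes. Chosen on lists 1 and 2, 65 of 101 genes (64.4%) had 8 or more in list 3, against 0.896% of all genes. None of the genes so chosen was without a peak in the list left out. The 65 in each of these shares are the genes of the rule itself, and most countable genes had no peak in a list, so the shares are a description.

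The 65 genes were longer than the others. They also held more peaks per kb, which was fixed in part by the rule, as the density uses the counts that chose the genes. Their median span was 16.0 kb, against 11.4 kb in the 1564 other genes with a peak in each list and 2.30 kb in all countable genes. They also had more RefSeq transcripts, with a median of 7 against 3 and 2. eEF1gamma was the shortest at 1.938 kb and Ten-a the longest at 291.517 kb, and 20 genes were under 10 kb while 9 were over 100 kb. Per kb of span, the 65 genes had medians of 1.05, 1.14 and 0.793 peaks in lists 1, 2 and 3, a mean of 0.997 ± 0.183 (SD, n = 3), against 0.326, 0.170 and 0.158 in the other genes with a peak in each list, a mean of 0.218 ± 0.094. The densest were eEF1gamma at 4.47 peaks per kb (mean of the lists), UQCR-C1 at 4.02, chp at 3.21 and RpL3 at 3.05. The sparsest were Ten-a at 0.0297, Sema1a at 0.064 and Rbp6 at 0.072. Among the other countable genes, 1208 had a span at least as long as the median of the 65, and they had medians of 2, 1 and 1 peaks, with 203 of them (16.8%) at 0 in every list.

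Across the 65 genes, peak number and span had a Spearman rho of 0.57 in list 1, 0.18 in list 2 and -0.03 in list 3. The peaks per kb of a gene were ordered alike in the lists, with a rho of 0.92 between lists 1 and 2, 0.88 between lists 1 and 3 and 0.96 between lists 2 and 3. These are descriptions over 65 genes that share the same libraries and were chosen on the counts, and spans enter the density in each list.

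**Figure D2:**
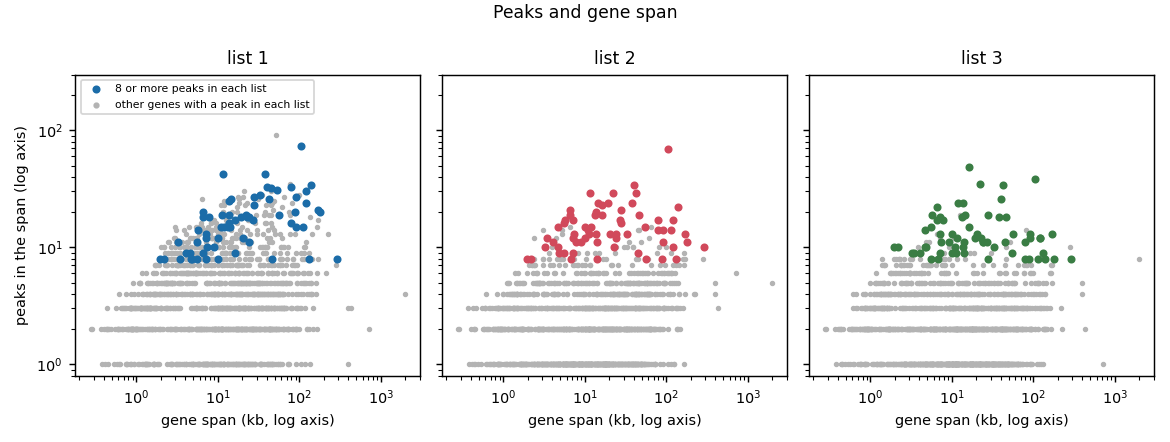
Peaks in the span of a gene (log axis) against the length of the span in kb (log axis), 1 panel per list, with the 65 genes in colour and the 1564 other genes with a peak in each list in grey. The coloured points begin at 8 peaks by construction and run over spans of 1.938 to 291.517 kb.

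The totals and the medians over the 65 genes (16, 13 and 11 peaks in lists 1, 2 and 3) went in the order of the lists' lengths, while single genes went either way. List 1 alone had the most peaks in 31 of the 65 genes, against 55.2% of the 1564 other genes with a peak in each list, and alone the fewest in 19, against 8.25% of the others. List 3 had fewer peaks than list 1 in 37 genes, against 63.4% of the others, more in 24, against 14.4%, and as many in 4. More peaks in list 3 than in list 1 were found in 5 of 8 phototransduction, 5 of 7 metabolic and 3 of 4 translation genes. None of the 10 RNA-binding and 3 transcription genes had more. The other groups ran from 1 of 6 synaptic genes to 3 of 7 signalling genes. The ratio of list 3 to list 1 was 5.44 in apolpp, 2.25 in Ggamma30A and 1.84 in Mhc, against 0.235 in Sh and 0.286 in FASN1. The rule requires 8 peaks in the shortest list too, so the choice itself favours genes that are not low in list 3.

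Peaks per gene also depended on how a covered stretch was cut. In apolpp, list 1 had 9 peaks over 10150 bp with the widest at 4100 bp, list 2 had 23 peaks over 8900 bp and list 3 had 49 peaks over 5750 bp. Once peaks with gaps of at most 50 bp were joined, apolpp had 2, 12 and 23 peaks. List 1 thus had the fewest peaks and the most covered sequence in that gene. In chp, joining left 6, 14 and 17 peaks, and in IA-2 it left 18, 18 and 19. With joined peaks, 35 of the 65 genes still had 8 or more peaks in each list and 30 did not.

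Peaks in the 65 genes were wider than the others. Their mean width was 180, 142 and 111 bp in lists 1, 2 and 3, against 102, 103.8 and 95.5 bp in the other peaks in single genes. Peaks of 1 bin made up 44.3%, 47.1% and 56.5% of them, against 62.5%, 60.8% and 65.6% of the others. Neighbouring midpoints lay a median of 325, 300 and 275 bp apart in the 65 genes. Gaps of a single bin between neighbours made up 34.96%, 32.1% and 28.3% of the gaps in the 65 genes, against 26.3%, 25.6% and 27.5% in the others, so list 3 differed least.

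Overlap between lists was read from positions, which the rule did not use. A same-strand overlap of at least 1 bp with a peak in both other lists was found for 485 of 1200 peaks (40.4%, Wilson interval 37.7 to 43.2) in list 1, 592 of 1025 (57.8%, 54.7 to 60.7) in list 2 and 706 of 920 (76.7%, 73.9 to 79.4) in list 3. Against the peaks of the 1564 other genes with a peak in each list, which gave 31.1%, 61.4% and 69.4%, the 65 genes were higher in lists 1 and 3 and lower in list 2. All other peaks in single genes gave 21.4%, 53.4% and 61.5%, but these include genes without a peak in some list, whose peaks cannot overlap both others. The mean over the lists, 58.3% ± 18.2 (SD, n = 3) in the 65 genes, was 23.8% when 50% of each of the overlapping peaks was required. Closely spaced and wide peaks can overlap more often for that reason alone, and this was not tested.

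Stretches covered by a peak of the same strand in all 3 lists numbered 729 in the 65 genes, of 4197 in all, and came to 83650 bp. Each of the 65 genes held at least 3 of them, with a median of 9. apolpp held the most, 45, with 9 of its 9, 21 of its 23 and 45 of its 49 peaks overlapping both other lists, followed by Mhc with 33 and norpA with 32. Msp300 had the lowest share of the 65 genes in each list: 6 of its 74, 6 of its 69 and 7 of its 38 peaks overlapped both other lists. Sarm was also low in list 1, with 3 of its 32 peaks, as were Ogdh with 3 of 25, Rbp6 with 3 of 20 and Sh with 6 of 34. In Msp300, lists 2 and 3 shared more with each other, as 30 of the 38 peaks of list 3 overlapped list 2 and 8 overlapped list 1. The last 20% of its span held 31, 7 and 3 of its peaks, and the 20% before that 13, 54 and 29, so list 1 peaked further toward the 3′ end than the other lists.

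**Figure D3:**
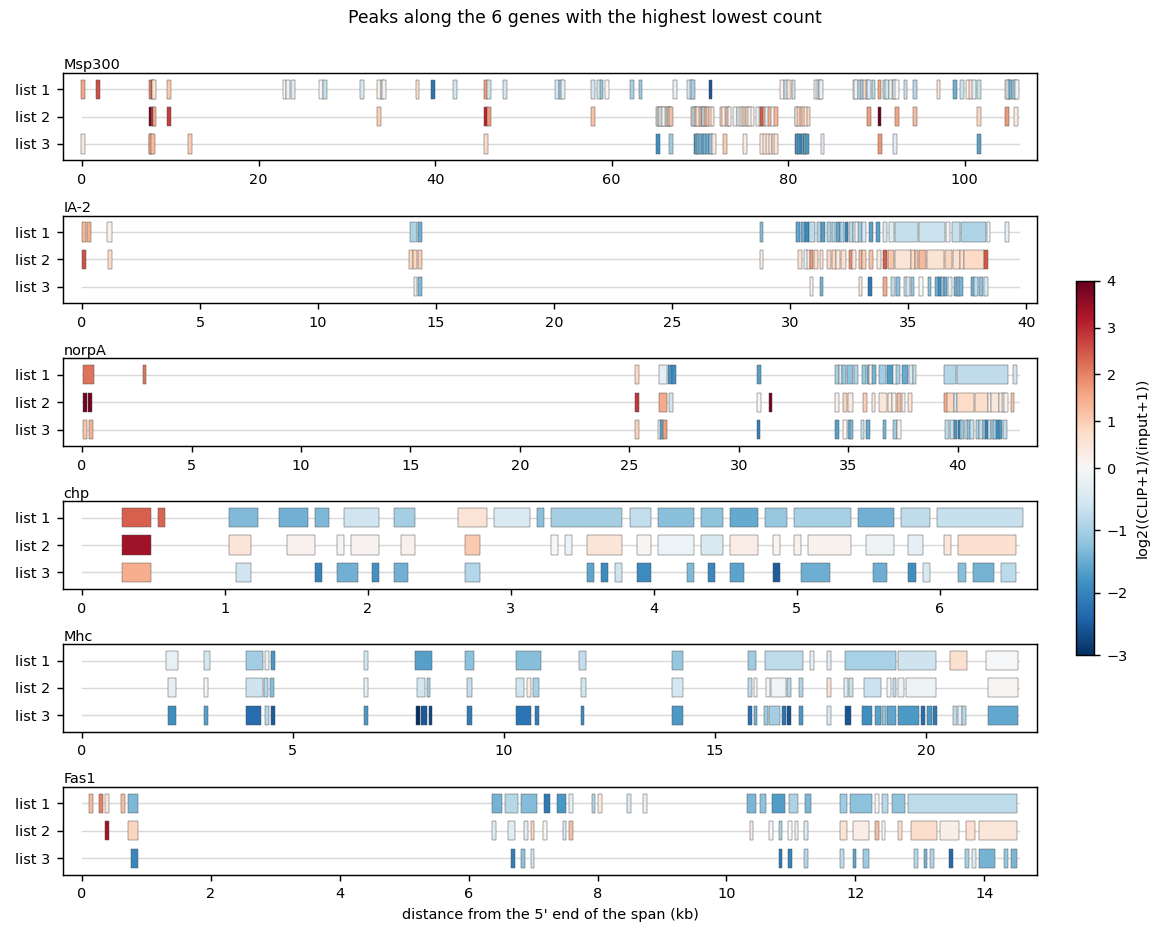
Peaks along the spans of the 6 genes with the highest lowest count (Msp300, IA-2, norpA, chp, Mhc and Fas1; Lk6 has the lowest count of Mhc and Fas1 but a lower sum), 1 row per list, with the distance from the 5′ end of the span in kb and the colour giving the log2 ratio of CLIP to input. Narrow peaks are drawn wider than to scale so that they can be seen; Msp300 shows different stretches in list 1 than in lists 2 and 3, and the red peaks near the 5′ end of norpA and chp stand beside blue ones further on.

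Recovery over input was read as the CLIP to input ratio, the log2 quotient of the reads per bin within a list after 1 was added to each side. Its median over the peaks of the 65 genes was -0.36, 0.76 and -1.02 in lists 1, 2 and 3, against 0.19, 1.95 and 0.00 over the other peaks in single genes. The 65 genes were lower in each list, with differences of -0.55, -1.19 and -1.02, a mean of -0.92 ± 0.33 (SD, n = 3). The CLIP side starts at 7, 25 and 7 reads per bin, the lowest signal of a peak in each list. It was alike, at medians of 11.45, 38 and 10 reads per bin against 9.5, 38 and 10. The input side was not: medians were 14.5, 22.1 and 21.0 input reads per bin in the 65 genes, against 8, 9 and 10 in the other peaks. CLIP reads were below input reads in 61.8%, 20.0% and 72.2% of the peaks of the 65 genes and in 41.2%, 15.5% and 49.5% of the others. Reads were not scaled between CLIP and input, so a value below 0 does not by itself mean less recovery than input.

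Split by gene, 44 of the 65 had a median ratio below that of the other peaks in every list, against 30.6% of the 1564 other genes with a peak in each list. Another 15 were above in every list, against 47.3% of the others, and 6 were mixed. All 8 phototransduction genes, all 7 metabolic genes, all 4 translation genes and all 3 muscle and cytoskeleton genes were below in every list, and all 3 transcription genes were above. RpL3 was lowest, at -1.75, -2.05 and -1.82 relative to the other peaks in lists 1, 2 and 3 (mean -1.87 ± 0.16, SD, n = 3), followed by RpS5a at -1.73 ± 0.07 and Mhc at -1.73 ± 0.79. In RpL3, 6 of 11, 6 of 10 and 5 of 9 peaks lay in non-coding spans, and in RpS5a 3 of 8, 5 of 10 and 4 of 10. The values of RpL3 and RpS5a may therefore belong in part to those non-coding genes. Rbfox1 was highest, at 1.27, 1.02 and 1.67 (mean 1.32 ± 0.33), followed by Ten-a at 1.30 ± 0.75, Sema1a at 1.25 ± 0.31 and dnc at 1.17 ± 0.38. The order of the 65 genes was similar between lists, with a Spearman rho of 0.73, 0.78 and 0.88 for lists 1 and 2, 1 and 3, and 2 and 3.

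The genes above the other peaks in every list were bun, dnc, pros, CG32264, ATP8A, Bsg, shep, Unr, Sh, Pdp1, Rbp6, para, Rbfox1, Ten-a and Sema1a. Their median span was 91.6 kb, with a median of 0.154 peaks per kb, against 11.7 kb and 1.23 peaks per kb in the 44 genes below. The ranges overlapped: spans ran over 10.06 to 291.517 kb in the 15 genes, where Unr was the shortest with 1.19 peaks per kb, and over 1.938 to 122.409 kb in the 44, where rdgA was the longest. Median input reads per bin were 4.56, 6.0 and 4.24 in the 15 genes and 26.4, 26.1 and 24.6 in the 44. Here too the ranges overlapped in lists 2 and 3. ATP8A, among the 15, had medians of 107 and 70.0 there, and the highest in the 44 were 76.3 and 78.0. In those lists 8 of 12 and 8 of 11 peaks of ATP8A lay in tRNA spans, so its values may belong in part to tRNA genes. Median CLIP reads per bin differed less, at 10, 40.5 and 10 in the 15 genes and 13.5, 37.3 and 9.25 in the 44. Input is the divisor of the ratio, and every peak had at least 7, 25 and 7 CLIP reads per bin in lists 1, 2 and 3. Input level and ratio are thus tied in part by construction. The part of input in the result was not tested.

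**Figure D4:**
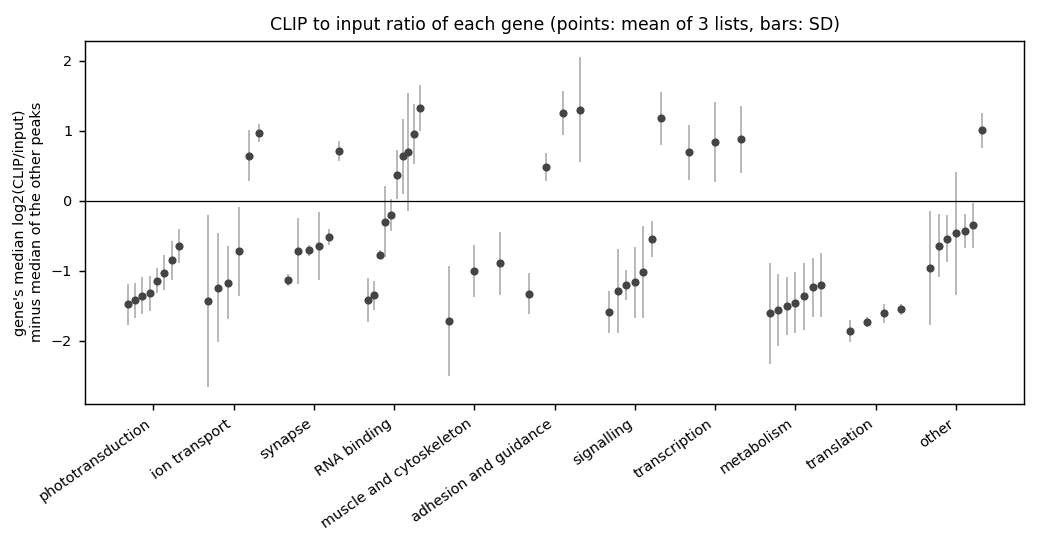
Each gene's median log2 CLIP to input ratio minus the median of the other peaks in single genes, grouped by role, where points are means of the 3 lists and bars are SD. Phototransduction, metabolism and translation lie wholly below 0, with RpL3 lowest at -1.87, and transcription lies above 0. Many peaks of RpL3 and RpS5a lay in non-coding spans. Rbfox1 is highest at 1.32.

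Single stretches shared by all lists show the range, with values of the peaks that hold them. For Unr, nrv3 and Rbfox1 the stretch with the highest mean ratio in the gene is given first. In Unr, chromosome 3L, 8438601 to 8438650, minus strand, lists 1, 2 and 3 had 59, 142 and 42 CLIP reads per bin where the input had 7.49, 3.68 and 2.0, which gave 3.86 ± 1.06 on the log2 scale (SD, n = 3). In nrv3, chromosome 2L, 21382001 to 21382300, plus strand, CLIP had 305.7, 620 and 105 and input had 18.9, 34.1 and 23.4, a log2 ratio of 3.41 ± 1.11. In list 1 no other peak of the 65 genes had a higher CLIP level than this one of nrv3. In Rbfox1, chromosome 3L, 10518001 to 10518200, plus strand, CLIP had 44.5, 147 and 29.0 and input had 4.40, 6.42 and 4.36, a ratio of 3.29 ± 0.94. The widest shared stretch of Pdp1, chromosome 3L, 7853251 to 7853550, minus strand, gave 53.2, 121 and 37.2 in CLIP and 8.51, 9.17 and 6.45 in input, a ratio of 2.82 ± 0.67. At these 4 places every list had more CLIP than input reads. The lowest shared stretch of the same genes had a ratio of 0.54 ± 0.89 in Unr, -1.48 ± 0.80 in nrv3, 1.61 ± 1.37 in Rbfox1 and 1.12 ± 0.94 in Pdp1, so nrv3, a gene of the mixed group, held both extremes.

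In the genes with most peaks the widest shared stretch went either way. That of Msp300, chromosome 2L, 5108851 to 5108950, plus strand, had 28.5, 68.5 and 14 reads per bin in CLIP and 4.90, 8.37 and 5.29 in input, a ratio of 2.16 ± 0.83. That of norpA, chromosome X, 4322701 to 4322850, plus strand, had 29.0, 103.75 and 15.7 in CLIP and 5.63, 6.05 and 6.60 in input, a ratio of 2.40 ± 1.39. That of chp, chromosome 3R, 31210251 to 31210450, minus strand, had 115, 229 and 47.8 in CLIP and 20.9, 20.9 and 16.7 in input, a ratio of 2.42 ± 0.96. CLIP exceeded input in every list at these 3 places, and at the corresponding place of trpl (2R, 9755301 to 9755750, plus strand) CLIP had 62.1, 137 and 25.8 and input had 15.3, 12.7 and 10.9, a ratio of 2.15 ± 1.10. By contrast, the widest shared stretch of Mhc, chromosome 2L, 16788051 to 16788750, plus strand, had 47.3, 69.1 and 21.2 in CLIP and 48.6, 64.7 and 64.6 in input, a ratio of -0.50 ± 0.92. In ninaC (2L, 7378801 to 7379650, plus strand), they were 34.8, 70.8 and 15.3 in CLIP and 72.0, 57.3 and 46.6 in input, a ratio of -0.76 ± 0.95. In Atpalpha (3R, 20965051 to 20966000, plus strand) CLIP had 28.3, 66.5 and 15.9 and input had 76.2, 62.3 and 48.9, a ratio of -0.96 ± 0.91. Only list 2 had more CLIP than input reads at these places of Mhc, ninaC and Atpalpha. At the widest shared stretches of the other 5 genes described in full, mean ratios ran from -0.58 to 0.89. That of ps (3R, 9432351 to 9432700, plus strand) had 21.8, 50.2 and 11 in CLIP and 12.98, 13.3 and 9.98 in input, a ratio of 0.89 ± 0.87. The second nrv3 stretch (2L, 21390051 to 21390550, plus strand) had 28.1, 81.5 and 20.1 in CLIP and 28.1, 35.8 and 24.5 in input (0.30 ± 0.76), and the Lk6 stretch (3R, 11763601 to 11764100, minus strand) had 21.9, 56.5 and 16.1 in CLIP and 33.9, 22.5 and 17.4 in input (0.19 ± 0.98). In IA-2 (2L, 1013401 to 1013550, minus strand), CLIP had 18.3, 42.5 and 10 and input had 30.8, 28.7 and 25.0, a ratio of -0.47 ± 0.92. In Fas1 (3R, 16639151 to 16639400, plus strand), CLIP had 18.3, 48.7 and 10 and input had 32.5, 34.8 and 28.5, a ratio of -0.58 ± 0.96. List 2 had the highest ratio in each of these 5 genes. It was also highest over all peaks, at a median of 1.58 against 0.17 in list 1 and -0.42 in list 3. The SD of a stretch therefore also holds such differences between whole lists.

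Peaks in the 65 genes lay toward the 3′ end. Taking the strand of most of a gene's peaks as its strand, the first 20% of the span held 13.2%, 13.6% and 13.2% of their peaks in lists 1, 2 and 3 (mean 13.3% ± 0.23, SD, n = 3), against 31.6%, 43.3% and 40.6% of the other peaks in single genes (38.5% ± 6.1). The last 20% held 40.1%, 35.1% and 35.2% (36.8% ± 2.8), against 30.1%, 20.0% and 21.2% (23.8% ± 5.5). In each list, then, the share in the first 20% was lower, and the share in the last 20% higher, in the 65 genes. Among genes with a peak in each list the share in the first 20% went down as the lowest count went up: in list 2 it was 13.6% in the 65 genes, 28.8% in the 211 genes with a lowest count of 4 to 7, 45.2% in the 623 with 2 to 3 and 58.5% in the 730 with 1. Median input reads per bin in list 2 were 22.1, 17.0, 9 and 7 in the same groups, which are defined by the counts themselves.

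Within the 65 genes, peaks in the first 20% nevertheless had the highest ratios, as they did in the other genes. The median log2 ratio was 1.33, 2.53 and 0.49 in the first 20%, against -0.57, 0.36 and -1.24 in the middle 20%. The input there was low, at 6.0, 8.0 and 8.97 reads per bin in the first 20%, against 20.1, 31.4 and 25.9 in the middle, and CLIP reads were 15.2, 47.0 and 11.3 against 12.35, 38.5 and 11. The other peaks in single genes had higher median ratios in the first 20%, at 1.42, 2.75 and 1.00 in lists 1, 2 and 3. Their input there was 4.0, 5.81 and 5.0 reads per bin. Among the 65, 48 genes had peaks in the first 20% and elsewhere in each list. Of these 48, 29 had the higher median ratio in the first 20% in every list, against 45.6% of 327 other genes. The lower ratio in every list was found in 4 of the 48 and in 41 of the 327. The median difference was 0.95, 0.73 and 0.66 in the 48 genes (mean 0.78 ± 0.16, SD, n = 3), against 0.61, 0.41 and 0.40 in the 327 (0.48 ± 0.12).

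The contrast within a gene was widest in norpA, where the first 20% exceeded the rest by 3.15, 3.38 and 2.32 (mean 2.95 ± 0.55 on the log2 scale). It was 2.54 ± 0.54 in trpl, 2.40 ± 0.27 in mub, 2.36 ± 0.85 in chp, 2.31 ± 0.10 in Msp300, 2.24 ± 0.62 in aqz, 2.17 ± 0.53 in rdgA, 2.09 ± 0.21 in CycG and 2.06 ± 0.14 in Rbp9. Genes of several roles shared it. The first 20% was lower in every list in ninaC (-0.59 ± 0.11), Bacc (-0.67 ± 0.33), Sf3b3 (-0.99 ± 0.56) and UQCR-C1 (-0.24 ± 0.21). In Mhc the difference was 0.17 ± 0.21 and in trp 0.37 ± 0.02, so photoreceptor genes differed among themselves. The annotation used here has no exons, so these stretches mix untranslated, coding and intron sequence. In rdgA, 28 of 30, 14 of 17 and 8 of 12 peaks lay in a non-coding span, and in Sf3b3 all peaks did. The contrasts in rdgA and Sf3b3 therefore rest largely on peaks that may belong to other genes.

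**Figure D5:**
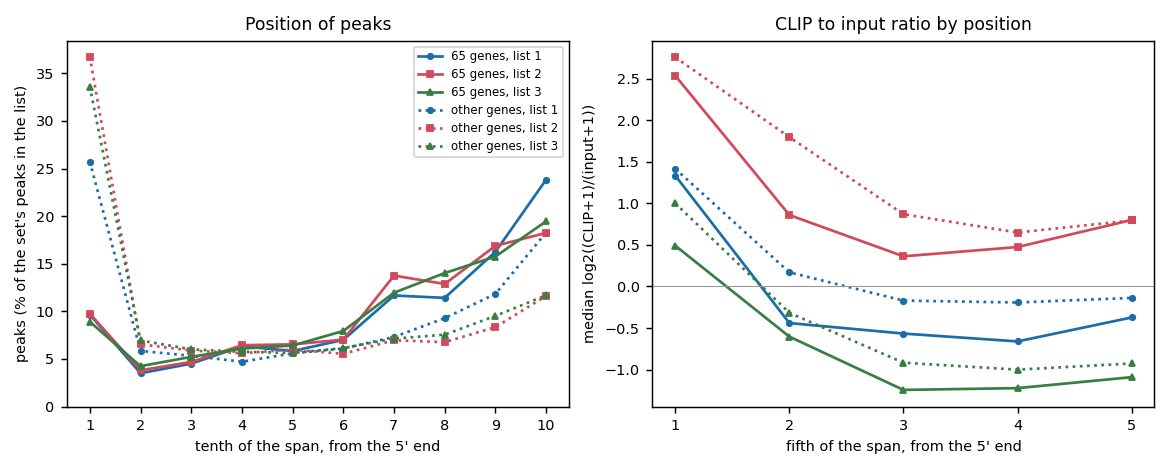
Left, share of peaks (%) in each 10% of the span from the 5′ end; right, median log2 CLIP to input ratio in each 20%; solid lines are the 65 genes, dotted lines the other peaks in single genes, and colours and markers the lists. The solid lines are low at the left edge (13.2% to 13.6% in the first 20%) where the dotted lines are high (31.6% to 43.3%), while ratios are highest in the first 20% in both.

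Some of the counts belong as much to non-coding genes that lie inside the spans. Midpoints of 60, 50 and 45 peaks of the 65 genes (5%, 4.88% and 4.89%) also lay in a non-coding span, in 13 of the genes, against 2.49%, 5.10% and 5.29% of the other peaks. Without these peaks 8 of the 65 genes would not have been chosen. In rdgA, 28 of 30, 14 of 17 and 8 of 12 peaks lay in the span of lncRNA:CR43836. In Sf3b3 all 9, 8 and 8 peaks lay in the spans of lncRNA:CR45184 or of snoRNA genes. In ATP8A 1, 8 and 8 peaks lay in tRNA spans, and 1, 8 and 7 of its peaks were on its minor strand. At tRNA:Leu-CAA-1-1 in the ATP8A span, CLIP reads were 39, 4924 and 1135, against 3053, 1798 and 2211 input reads, so the lists disagreed there in direction. RpL3 (6, 6 and 5) and RpS5a (3, 5 and 4) had peaks over snoRNA genes or, in RpL3, an antisense gene, and Sarm (1, 3 and 3) over tRNA or lncRNA genes. Ten-a and Sema1a lost a single peak in 1 and 2 lists and so fell below 8. Reads of a host gene and of a non-coding gene inside it cannot be told apart in these lists.

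The 65 genes were also counted in lists of genes by function. Of 14 countable photoreceptor genes, 6 were among the 65 (norpA, trp, trpl, ninaC, chp and rdgA), and of 12 ion pump genes, 4 (Atpalpha, nrv2, nrv3 and SERCA). The lists of ion channels (4 of 18: para, Sh, trp and trpl), RNA-binding proteins (4 of 18: Rbp9, mub, Syp and Rbfox1), presynaptic release (3 of 15: Syt1, nSyb and cpx), lipid transport (2 of 13: apolpp and FASN1), the sarcomere (2 of 18: Mhc and Msp300) and adhesion and guidance (1 of 18: Ten-a) held fewer. None of 18 chromatin and transcription genes, 17 kinase and phosphatase genes, 16 spectrin, ankyrin and microtubule genes or 12 translation genes in the lists was among the 65. Of these, 11, 13, 10 and 8 had a peak in each list. Of all countable genes 0.539% were among the 65, and of the 1629 genes with a peak in each list 3.99% were. At such shares a short list can readily hold no member, so an empty list is not read as a result about its function. The lists do not hold every gene of a function, so none in a list does not mean none of that function. They leave out the members eEF1alpha2, eEF1gamma, RpL3 and RpS5a of translation, the kinase Lk6, and the transcription regulators pros, bun and Pdp1. These lists were written with earlier results of the data known, and no test was made on them.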

How the data were processed

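The authors deposited 3 peak lists, each from 1 m6A-CLIP and 1 input library of fly heads. Reads were aligned with STAR 2.7.5a to dm6 (BDGP6), per the submitters' processing notes. The peak caller and its thresholds are not given in the sources used here. Columns have no header and were read from their values: the deposited signal is the mean CLIP reads per 50 bp bin, and the authors' natural log column holds the mean log of input reads per bin, whose exponential is used here. Whether 1 was added before that log is not known. The deposited p-value of a peak was used only to rank peaks. In peaks of several bins the input is a geometric and the CLIP level an arithmetic mean, so the ratio leans upward there, and 1-bin peaks alone are given as an alternative.

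Genes came from the RefSeq table of Release 6 plus ISO1 MT, without strand or exons, and none of its coordinates is printed. Shared stretches are 1-based coordinates of the lists. Each CLIP library was read with the input of the same list. No test was made: counts chose the genes, the ratio comes from the same contrast, and 3 lists cannot give an exact two-sided permutation p below 0.25. Wilson intervals are at 95%. The genes, role groups and function lists were chosen with earlier results of these data known, the role groups after the 65 genes were seen. Every member and every gene with a lowest count of 7 was named, and the 12 with the highest lowest count, ties going to the higher sum (which left out CycG), were described in full. Other genes were named after their values were seen. Python 3.11.15 with numpy 2.4.6, pandas 2.3.3, scipy 1.17.1 and matplotlib 3.10.9 was used, and the counting was tested on simulated data.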

Additional observations from a re-analysis of the deposited data

How the results depend on the processing

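Of 52 recomputed values, 38 stayed within 1 SD of the lists or, for the number of genes, within 1.5 times, and 14 moved. The number of genes was 118 at 6 or more peaks and 36 at 10 or more, 35 and 10 after joining peaks within 50 and 200 bp, 13 with the 50% of each list lowest in p-value, 32 with equally long lists, and 75 to 101 with 1 list left out (101 without list 3). It was 87 when a peak counted for every span, 59 on the main strand and 57 without peaks in non-coding spans, the last chosen after seeing the data. Peaks per kb came to 0.628 after joining within 50 bp and to 0.923 to 1.10 with 1 list left out. The mean overlap with both other lists, 58.3%, was 23.8% when the shared part had to reach 50% of both peaks. With 1 list left out it was 66.6% to 72.1%, but only 1 other list then remains to overlap, so the measure is a looser one. The excess in overlap over other genes, 12.9 points, was 4.33 points against genes with a peak in each list, also chosen after seeing the data. The ratio difference of -0.92 was -1.31 with a median per gene first, -0.79 to -1.10 with 1 list left out and -0.75 in 1-bin peaks. The spacing of 300 bp between midpoints was 150 bp between peak ends. The difference between the first 20% and the rest of 0.78, whose alternatives were all chosen after seeing the data, was 0.69 to 0.84 with 1 list left out and 0.64 in 1-bin peaks. In 644 intervals with the same ends in each list, 67 of them in the 65 genes, the ratio difference was -1.52 with the replicate block and -1.53 with no replicate block; same-numbered CLIP and input libraries had correlations of deviations of 0.195, -0.033 and 0.222, so the numbers are not shown to pair the samples. Unknown library totals limit every level to its own list.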
